A study of Brachypodium distachyon with 12 samples.

Results

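Polyphenol oxidases are plant copper enzymes that oxidise phenols with molecular oxygen. They turn ortho-diphenols into reactive quinones, and some of them first hydroxylate monophenols such as tyrosine, which yields DOPA. Most are imported into plastids and sit in the thylakoid lumen, apart from the phenols stored in the vacuole, and they are best known for the browning of cut or bruised tissue. Aureusidin synthase is a relative described from snapdragon petals, where it makes yellow aurone pigments. The title of the series is about dopamine synthesis in plants, and tyrosine hydroxylation to DOPA is a chemical step on one route to that amine.

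The members described here were 5 genes taken by identifier, whose deposited best match is a polyphenol oxidase or aureusidin synthase, out of 39068 genes in the table. Expression was measured by RNA sequencing in Bd21-3, a line of the wild grass Brachypodium distachyon that serves as a relative of the cereals in laboratory work. All plants were labelled wild type and were grown in vessels of 40 mL half-strength MS medium, 2 seedlings to a vessel, at 22 °C with 16 h light and 8 h dark. The 12 libraries formed 4 groups of 3: whole roots at week 2, whole roots at week 4, whole shoots at week 2 and whole shoots at week 4. The labels state that the biological replicates used different plants, and the 2 ages came from separate harvests, so age and harvest cannot be told apart. Each library is a whole organ, so fewer cells expressing a gene and less RNA per cell cannot be told apart.

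Total counts were 17261299 to 24186744 per library. The organ labels were checked with marker genes. The summed level of 27 chlorophyll a-b binding genes, light-harvesting proteins of green tissue, was 63229 to 86379 CPM in shoots, where CPM is counts per 1e6 of library size scaled by TMM. It was 1119 to 2299 CPM in week 2 roots and 6411 to 7332 CPM in week 4 roots, and all 27 genes had counts in at least 1 library. The 11 root cap genes summed to 636 to 836 CPM in roots and to 0.953 to 2.97 CPM in shoots. The 3 Casparian strip membrane genes, which mark the root endodermis, summed to 52.7 to 79.2 CPM in roots and to 2.97 to 4.00 CPM in shoots.

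The 5 members lay in 2 short stretches of the genome. They were BdiBd21-3.3G0200300, BdiBd21-3.3G0199700, BdiBd21-3.2G0667800, BdiBd21-3.2G0666400 and BdiBd21-3.2G0668300, and genes are called here by what follows the line name. Positions were taken from the deposited annotation columns, on a build not given in the sources used here. On chromosome 3, gene 3G0199700 ran from 13476785 to 13478868 on the minus strand and gene 3G0200300 from 13508620 to 13510743 on the plus strand. On chromosome 2, all on the minus strand, gene 2G0666400 ran from 51085088 to 51087341, gene 2G0667800 from 51151535 to 51153846, and gene 2G0668300 from 51175366 to 51177719. The best match of 2G0668300 was aureusidin synthase, and that of the other 4 was a chloroplastic polyphenol oxidase, also named catechol oxidase. These names rest on likeness of sequence alone, and no enzyme activity was measured.

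All 5 carried the same 3 annotated domains: the central tyrosinase domain, which holds the copper centre, a polyphenol oxidase middle domain and a C-terminal domain of unknown function. The deposited lengths were similar, from 2013 to 2251 bases. In 3G0199700 the length filled the whole span of the gene, so its model is a single exon, while the span of the other members exceeded the length by 103 to 121 bases. A sixth gene with the same domains, 5G0291800 on chromosome 5 (25039429 to 25041273, plus strand), had 0 counts in all 12 libraries and was not tested. No other gene of the table held any of the 3 domains.

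**Figure D1:**
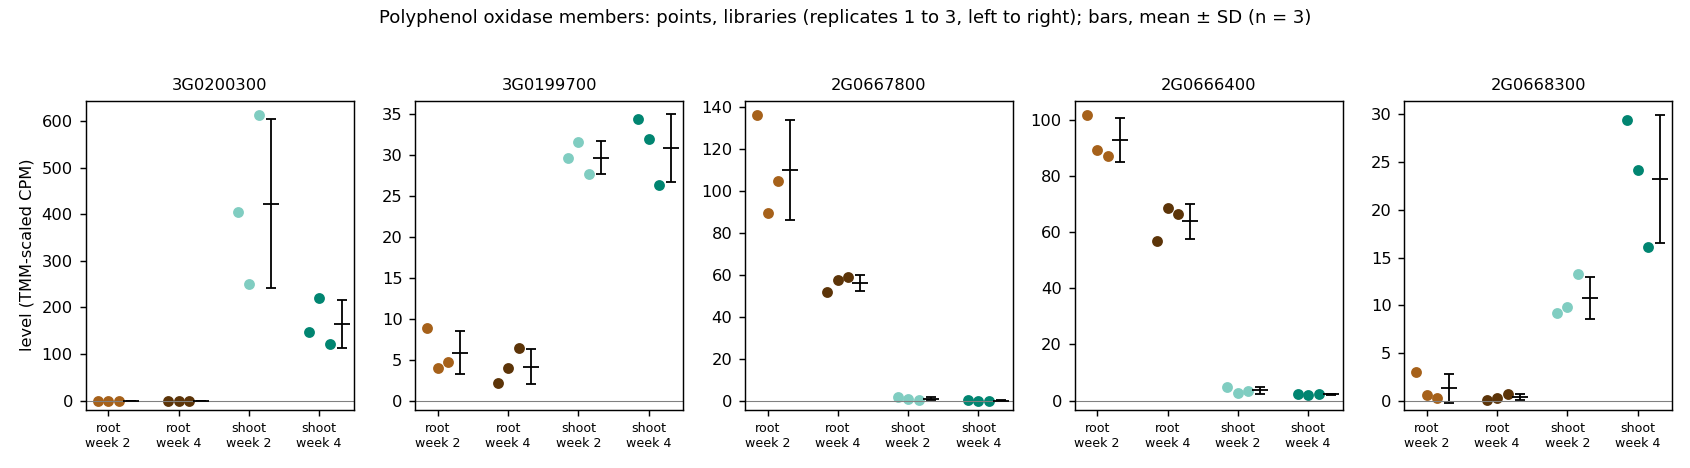
Level of each member (TMM-scaled CPM, y axis, a separate linear scale per panel) in the 12 libraries, by organ and age. Points are single libraries, and the bars beside them give the mean ± SD of 3. Genes 3G0200300, 3G0199700 and 2G0668300 were higher in every shoot library than in any root library, and 2G0667800 and 2G0666400 were higher in every root library than in any shoot library.

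The first comparison asked which family members were used in roots and which in shoots. The family divided by organ. Genes 2G0667800 and 2G0666400 were root genes, and 3G0200300, 3G0199700 and 2G0668300 were shoot genes, at both ages. The most abundant member of the shoot, 3G0200300, was all but missing from roots, and the root gene 2G0667800 was nearly missing from shoots. By edgeR's quasi-likelihood test, 5 of 5 members were called at an adjusted p under 0.05 at week 2, 2 higher and 3 lower in roots, while 56.1% of the 26463 tested genes were called (28.4% higher, 27.7% lower). The same 5 were called in the same directions at week 4, against 60.9% of tested genes (32.4% higher, 28.5% lower). Root and shoot values did not overlap for 5 of 5 members at either age, as for 65.0% of tested genes at week 2 and 67.0% at week 4. All 5 passed the filter on low counts, but 3G0200300 and 2G0667800 could pass only through the organ where they were high, so for them the contrast had to differ. The median log2 fold change of the members, root minus shoot, was -2.33 at week 2 and -2.89 at week 4, beside 0.01 and 0.04 over all tested genes. With members on both sides of 0, that median describes 3G0199700 rather than the family.

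Gene 3G0200300, a polyphenol oxidase of the chromosome 3 pair, was the member that set the shoot level. In week 2 shoots it stood at 404, 251 and 613 CPM in replicates 1 to 3, from 8039, 5395 and 11376 counts. In week 4 shoots the values were 148, 221 and 122 CPM. Of the 6 root libraries, 5 held no count and week 2 replicate 2 held 2 counts, so the groups were far from overlapping. At week 2 the ratio of shoot to root from pooled counts was 14210, with a 95% exact binomial counting interval of 3933 to 117300 (adjusted p = 6.13e-07). At week 4 the root level was at least 4061-fold lower, taking 3 counts over the root group as the floor (adjusted p = 1.06e-06). Counting intervals and floors cover counting error only. The chlorophyll a-b binding genes stood in roots at 2.39% of their shoot level at week 2 and at 9.31% at week 4. For 3G0200300 these values were 0.00605% and 0%.

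The other member of the pair, 3G0199700, was a shoot gene with a level in roots that lay well above the floor. Shoots held 29.6, 31.6 and 27.6 CPM at week 2 and 34.3, 31.9 and 26.3 CPM at week 4. Roots held 8.92, 3.95 and 4.77 CPM at week 2 and 2.11, 3.98 and 6.40 CPM at week 4. Every shoot library was above every root library. The root minus shoot log2 fold change at week 2 was -2.33 (SE 0.37, adjusted p = 0.00025 by edgeR). At week 4 it was -2.89 (SE 0.38, adjusted p = 5.42e-05). Its mean level in roots was 19.9% of that in shoots at week 2 and 13.5% at week 4, above the shares of the chlorophyll a-b binding genes. Root replicate 1 of week 2 had the highest level of this gene among roots and the lowest chlorophyll a-b binding sum, 1119 CPM. The part of shoot RNA in these root levels was not tested.

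The root genes came from the chromosome 2 group. Gene 2G0667800 stood at 136, 89.8 and 105 CPM in week 2 roots and at 52.0, 57.8 and 58.9 CPM in week 4 roots. In week 2 shoots it was at 1.66, 0.697 and 0.269 CPM, and in week 4 shoots 1 library held 3 counts and the other two none. The lowest root value was thus many times the highest shoot value at either age. At week 2 the log2 fold change by edgeR was 6.96 (SE 0.46, adjusted p = 3.71e-07). Without week 2 shoot replicate 1 it was 7.75. At week 4 the ratio of root to shoot from pooled counts was 1088 (counting interval 372 to 5279, adjusted p = 3.36e-07).

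Gene 2G0666400, also a polyphenol oxidase, had a similar root level and counts in every shoot library. Root libraries held 102, 89.1 and 87.2 CPM at week 2 and 56.7, 68.5 and 66.4 CPM at week 4. Shoot libraries held 4.98, 2.60 and 3.50 CPM at week 2 and 2.51, 2.05 and 2.22 CPM at week 4, from 36 to 99 counts each. Root and shoot libraries did not overlap at either age. At week 2 the log2 fold change was 4.65 (SE 0.20, adjusted p = 5.39e-09 by edgeR). It was 4.81 (SE 0.21, adjusted p = 1.24e-08) in the older plants.

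Root marker genes had counts in shoots too. The mean shoot level of 2G0667800 was 0.793% of its root level at week 2 and 0.0826% at week 4, and that of 2G0666400 was 3.99% and 3.54%. Root cap genes stood in shoots at 0.283% and 0.177% of their root sum, and Casparian strip membrane genes at 5.70% and 4.90%. Shoot replicate 1 of week 2 had the highest level of both polyphenol oxidases among shoots and the highest root cap sum, 2.97 CPM. Its Casparian strip membrane sum, 3.57 CPM, was not the highest, which was 4.00 CPM in week 2 replicate 2. The part of root RNA in these shoot levels was not tested.

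Gene 2G0668300, the aureusidin synthase match, lay 21.5 kb from the root gene 2G0667800 but was a shoot gene. It stood at 9.20, 9.85 and 13.3 CPM in week 2 shoots and at 29.4, 24.2 and 16.1 CPM in week 4 shoots. Roots held 3.02, 0.652 and 0.254 CPM at week 2 and 0.124, 0.263 and 0.716 CPM at week 4. Week 2 root replicate 1, with 69 counts, was apart from the other root libraries, which held 3 to 17. By edgeR the log2 fold change was -3.03 at week 2 (SE 0.67, adjusted p = 0.00296), and -4.50 without week 2 root replicate 1 (adjusted p = 5.67e-05). At week 4 it was -5.97 (SE 0.79, adjusted p = 7.74e-05), and -6.84 without week 4 root replicate 3.

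**Figure D2:**
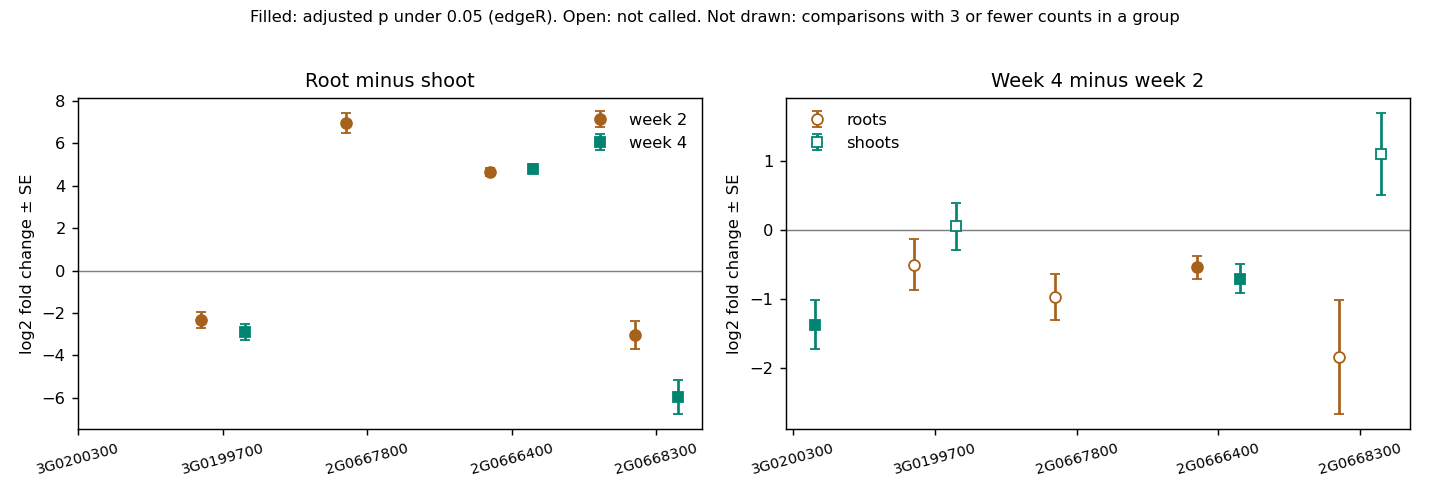
Log2 fold change ± SE of each member, root minus shoot (left, by week) and week 4 minus week 2 (right, by organ), from the edgeR model of 12 libraries. Filled symbols passed an adjusted p of 0.05, and comparisons in which a group held 3 or fewer counts are not drawn. Every drawn organ contrast passed, while every drawn age contrast lay within 2 log2 units of 0. The age contrasts not drawn include the fall of 2G0667800 in shoots, 17.1-fold from pooled counts.

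Levels of different members were compared per length, as CPM per kilobase (RPKM). In week 2 shoots the order ran from 3G0200300 at 209.9 ± 90.3 RPKM (SD, n = 3), through 3G0199700 at 14.2 ± 0.96 and 2G0668300 at 4.79 ± 0.98, to 2G0666400 at 1.73 ± 0.56 and 2G0667800 at 0.396 ± 0.32. No neighbours in that order overlapped. In week 4 shoots the order was the same, with 3G0200300 at 81.3 ± 25.5 RPKM, 3G0199700 at 14.8 ± 1.98, 2G0668300 at 10.3 ± 2.98 and 2G0666400 at 1.06 ± 0.11. Here 3G0199700 and 2G0668300 overlapped. In shoots, 3G0200300 exceeded 98.3% of all tested genes in RPKM at week 2 and 94.9% at week 4.

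In roots 2 members stood near each other. At week 2, 2G0667800 reached 49.97 ± 10.8 RPKM and 2G0666400 reached 43.4 ± 3.72, and at week 4 they stood at 25.5 ± 1.68 and 29.9 ± 2.94. The ranges of the 2 genes overlapped at both ages. Within each week 4 root library 2G0667800 was the lower, at 0.887, 0.816 and 0.858 of 2G0666400. At week 2 these ratios were 1.30, 0.974 and 1.16, so the order differed between libraries. Next came 3G0199700, at 2.82 ± 1.28 RPKM at week 2 and 2.00 ± 1.03 at week 4, below every value of the 2 root genes. Gene 2G0668300 was lower again at both ages, without overlap, at 0.581 ± 0.66 and 0.163 ± 0.14 RPKM.

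Summed over the members, the level was 231 ± 90.2 RPKM in week 2 shoots and 107 ± 27.8 in week 4 shoots. Roots summed to 96.8 ± 16.1 RPKM at week 2 and 57.6 ± 5.53 at week 4. Shoot libraries thus ranged from 81.5 to 325 RPKM and root libraries from 51.2 to 115, which overlapped across ages but not within week 2 or within week 4. One gene made up most of the shoot sum. Gene 3G0200300 accounted for 89.8 ± 4.05% of it at week 2 and 75.1 ± 4.92% at week 4, while 3G0199700 gave 6.96 ± 3.21% and 14.2 ± 2.57%. In roots, 2G0667800 gave 51.3 ± 2.94% at week 2 and 44.4 ± 1.45% at week 4, and 2G0666400 gave 45.3 ± 3.95% and 52.0 ± 1.19%.

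**Figure D3:**
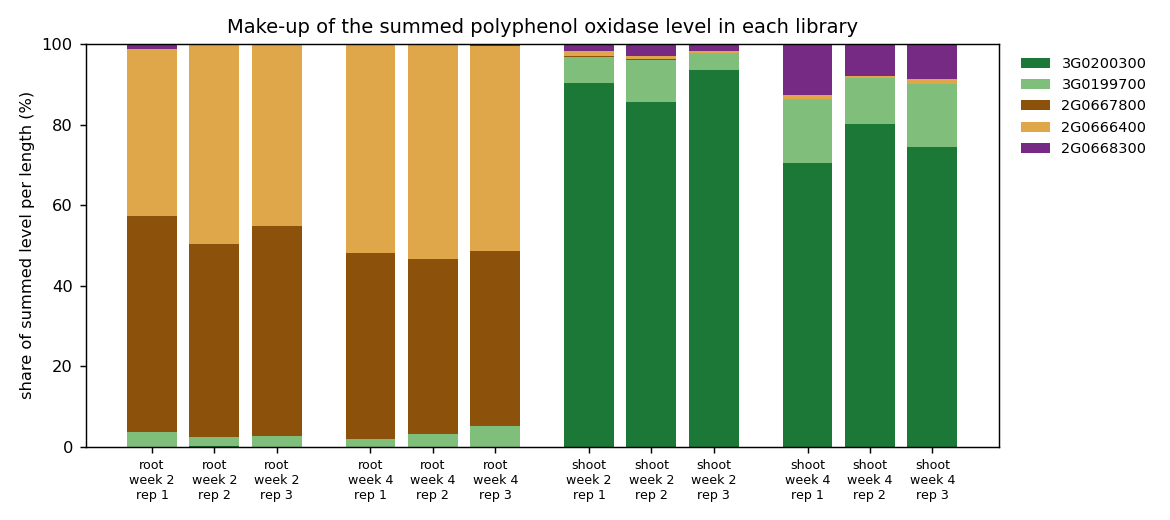
Share of each member in the summed level per length (RPKM, y axis in percent) in each of the 12 libraries. Each bar is a library and adds to 100%. Roots were divided between 2G0667800 and 2G0666400, and 3G0200300 filled 70.5% to 93.6% of every shoot library.

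The second comparison asked how the members differed between week 2 and week 4 within an organ. In shoots 3 of 5 members were called, all lower at week 4, while 33.9% of tested genes were called (14.5% higher, 19.4% lower). In roots 1 of 5 was called, also lower at week 4, while 18.8% of tested genes were called (12.4% higher, 6.35% lower). No member was called higher with age in either organ. The median log2 fold change of the members was -0.70 in shoots, beside 0.00 over all tested genes. In roots it was -0.75 over 4 members, leaving out 3G0200300 for its counts of 2 and 0, beside 0.05. Over all 5 members the root median was -0.97. The shoot median is the value of the root gene 2G0666400, and it keeps 2G0667800 with 3 pooled counts in week 4 shoots. Members lay on both sides of 0 in shoots, so that median does not describe the family. The age contrasts share libraries with the organ contrasts above and are not separate evidence.

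In shoots the abundant 3G0200300 fell by 1.37 on the log2 scale (SE 0.35, adjusted p = 0.0188, edgeR), from 423 ± 182 to 164 ± 51.3 CPM (SD, n = 3). All week 4 values, up to 221 CPM, lay below the lowest week 2 value of 251 CPM. Without week 4 shoot replicate 1 the adjusted p was 0.0502, and without week 4 shoot replicate 3 it was 0.0581. The root gene 2G0666400 fell in shoots by 0.70 (SE 0.21, adjusted p = 0.0222), with no overlap, and this call was lost under several alternatives. Gene 2G0667800 went from 53 pooled counts to 3 in shoots, which is a 17.1-fold ratio (counting interval 5.54 to 85.5, adjusted p = 0.00876). Beside these low levels, the root cap sum in shoots was 1.24 to 2.97 CPM at week 2 and 0.953 to 1.82 CPM at week 4. The Casparian strip membrane sum was 3.50 to 4.00 CPM and 2.97 to 3.81 CPM, and the part of root RNA in these levels was not tested.

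The other shoot members did not pass the test. Gene 3G0199700 had a log2 fold change of 0.06 in shoots, with a 95% interval of -0.70 to 0.82 (adjusted p = 0.92, edgeR). For 2G0668300 the mean was 10.8 ± 2.21 CPM at week 2 and 23.2 ± 6.70 CPM at week 4. Each week 4 shoot library was above each week 2 shoot library, but the log2 fold change of 1.11 had an interval of -0.20 to 2.42 and an adjusted p of 0.175. Beside the 4 members whose week 2 and week 4 shoot values did not overlap, 49.0% of tested genes did not overlap. Summed chlorophyll a-b binding levels overlapped between the ages in shoots, at 63545 to 78409 CPM and 63229 to 86379 CPM.

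In roots 2G0666400 fell by 0.54 (SE 0.17, adjusted p = 0.0454, edgeR), from 92.7 ± 7.93 to 63.8 ± 6.28 CPM. The call was lost when any single root library was left out, with adjusted p from 0.0678 to 0.164, and with the replicate number as a block (0.0593). It held by DESeq2 (adjusted p = 0.0111) and by limma-voom (adjusted p = 0.00518). Gene 2G0667800 was at 110 ± 23.8 CPM at week 2 and 56.3 ± 3.71 CPM at week 4. Its root values did not overlap between the ages, yet the log2 fold change of -0.97 (interval -1.71 to -0.24) had an adjusted p of 0.0676. It had an adjusted p of 0.0155 by DESeq2 and 0.00194 by limma-voom. By edgeR the adjusted p was 0.0936 to 0.204 when any single root library was left out, and 0.0798 with the replicate number as a block. For 2 of 5 members the root values did not overlap, against 42.4% of tested genes.

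The remaining members were low in roots and gave wide intervals. Gene 3G0199700 had a log2 fold change of -0.50 in roots (interval -1.31 to 0.32, adjusted p = 0.373, edgeR). That of 2G0668300 was -1.84 (interval -3.67 to 0.001, adjusted p = 0.15), and without week 2 root replicate 1 it was -0.37. The pooled counts of 3G0200300 were 2 at week 2 and 0 at week 4, both under the floor, so no fold is given. Over the same ages the chlorophyll a-b binding sum in roots was 1119 to 2299 CPM and 6411 to 7332 CPM.

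Whether the change with age differed between the organs was tested by the interaction, which is the root change minus the shoot change. By edgeR 0 of 5 members were called, while 8.52% of tested genes were (6.56% higher, 1.95% lower), and 2 members had an unadjusted p under 0.05. For 2G0667800 the interaction was 2.98 (SE 1.05, adjusted p = 0.111), and it rests on 3 counts in week 4 shoots. Without week 4 shoot replicate 1, the library with those counts, the adjusted p was 0.0847. Without week 2 shoot replicate 1 the interaction was 2.15 (adjusted p = 0.195). Without week 2 shoot replicate 3 it was 3.40 and was called (adjusted p = 0.0411). For 2G0668300 it was -2.94 (SE 1.02, adjusted p = 0.104). That value was -1.47 without week 2 root replicate 1 (adjusted p = 0.289) and -3.82 without week 4 root replicate 3 (adjusted p = 0.0842). Without week 2 root replicate 3 it was -3.405 and was called (adjusted p = 0.0472). DESeq2 called both genes and limma-voom called 0 members. So the age differences given above for one organ are not shown to differ from those in the other.

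Ratios between members within a library do not depend on library scaling. In roots the ratio of 2G0667800 to 2G0666400 per length was 1.30, 0.974 and 1.16 at week 2 and 0.887, 0.816 and 0.858 at week 4. In shoots the ratio of 3G0200300 to 3G0199700 was 14.1, 8.21 and 23.0 at week 2 and 4.46, 7.17 and 4.81 at week 4. The ratio of 2G0668300 to 3G0199700 in shoots was 0.288, 0.289 and 0.447 at week 2 and 0.794, 0.701 and 0.567 at week 4. None of these overlapped between the ages, nor did the ratio of 3G0200300 to 2G0668300, which was 28.5 to 51.5 at week 2 and 5.61 to 10.2 at week 4. The 4 ratios were chosen after the values were seen, and each had a two-sided exact permutation p of 0.1 (0.1 adjusted over the 4), the smallest that 3 against 3 libraries can give. The shoot ratios share their genes, so each of them follows from the others and they are not separate results.

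**Figure D4:**
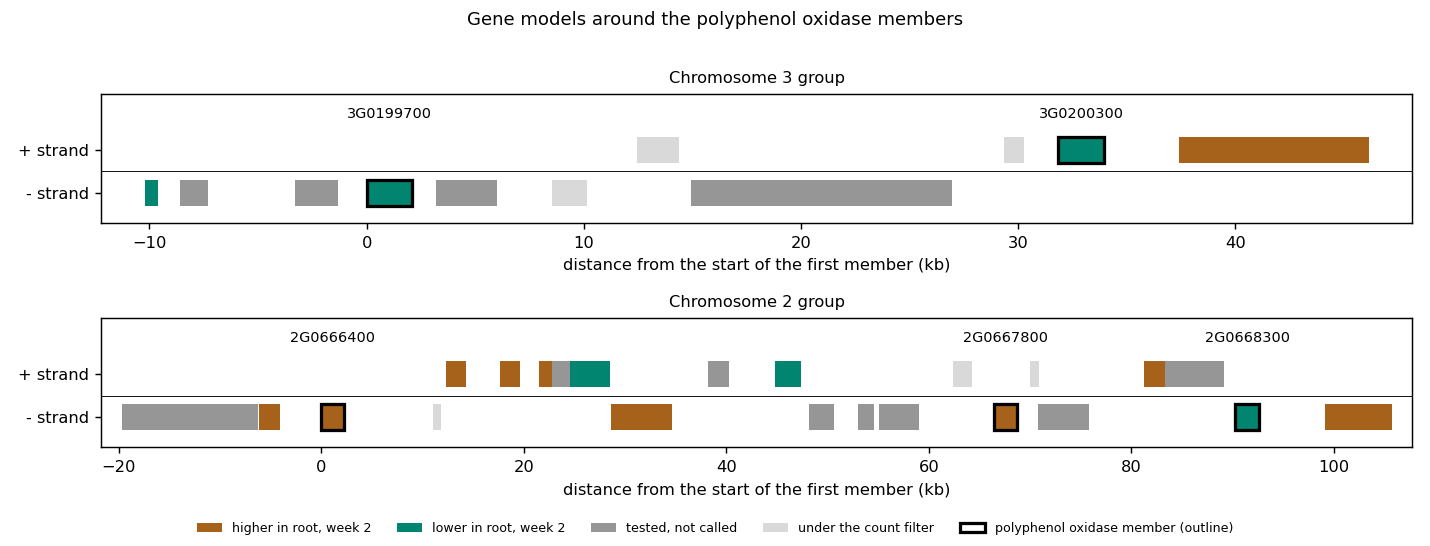
Gene models around the members on chromosomes 3 and 2, as distance in kilobases from the start of the first member. Boxes above the line are on the plus strand and those below on the minus strand, members are outlined, and colour gives the root versus shoot call at week 2. Both members of the chromosome 3 pair were lower in root, while the chromosome 2 group held 2 members higher in root and 1 lower.

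Position did not sort the members by organ on chromosome 2. The chromosome 3 pair lay 29.8 kb apart, on opposite strands, with 5 genes between them. Of these, 2 were tested, of which 0 were called between organs at week 2 and 1 was higher in roots at week 4. Genes 2G0666400 and 2G0667800 lay 64.2 kb apart with 13 genes between them, of which 11 were tested. At week 2, 4 of these were higher and 2 lower in roots, and at week 4, 6 were higher and 2 lower. Between 2G0667800 and 2G0668300 lay 4 genes, 3 of them tested and 1 higher in roots at both ages. Over all tested genes, 28.4% were higher and 27.7% lower in roots at week 2, and 32.4% and 28.5% at week 4.

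Among the nearest neighbours, a gene whose best match is Peroxidase 56 (2G0666300) lay 4075 bases from 2G0666400 and shared its direction. Peroxidases of this class oxidise phenols with hydrogen peroxide. Its root minus shoot log2 fold change was 3.37 (adjusted p = 7.64e-07, edgeR) at week 2 and 2.85 (adjusted p = 2.32e-06) at week 4. That direction was shared by 28.4% of all tested genes at week 2 and 32.4% at week 4. Beside 3G0200300, the putative aconitate hydratase 3G0200400, an enzyme that interconverts citrate and isocitrate, was higher in roots, by 0.96 (adjusted p = 0.000632) and 0.62 (adjusted p = 0.00992). The neighbours of 3G0199700, an ATG8C match of the autophagy machinery and an rRNA methyltransferase match, were called at neither age. Because the members resemble one another, reads that match more than one of them could be counted in part for the wrong one. The treatment of such reads was not stated.

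Likeness to other genes was measured as the root mean square difference of centred log2 CPM over the 12 libraries, where 0 means the same pattern. The log2 CPM used a prior count of 2, so likeness for genes with few or no counts in an organ depends on it. Nearest to 3G0200300 came 2G0626600, a BURP domain protein match, at 0.607, and 4G0393500, a match to a curcuminoid-type polyketide synthase, at 0.711. Neither was called with age in shoots by edgeR, at log2 fold changes of -0.15 (adjusted p = 0.522) and -0.12 (adjusted p = 0.651). The value of 3G0200300 there was -1.37. Nearest to 3G0199700 were a chemocyanin match, 3G0753800, at 0.25, a small copper protein, and 1G0275400, which carries a domain of unknown function, at 0.296. Nearest to 2G0666400 were 1G0567800, a Peroxidase 11 match, at 0.219, and 3G0745101, a match to a putative U-box domain protein, at 0.244. Nearest to 2G0667800 were 2G0063200, which carries a domain of unknown function, at 0.446, and 1G0272900, a match to Dirigent protein 3, at 0.467. Dirigent proteins guide the coupling of phenol radicals. Nearest to 2G0668300 were a receptor-like kinase match, 2G0602200, at 0.471, and 3G0776300, which has no best match, at 0.571. Between members the smallest difference was 1.203, for 3G0199700 and 2G0668300, and that of the 2 root genes was 1.84. The largest was 9.66, for 3G0200300 and 2G0667800.

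**Figure D5:**
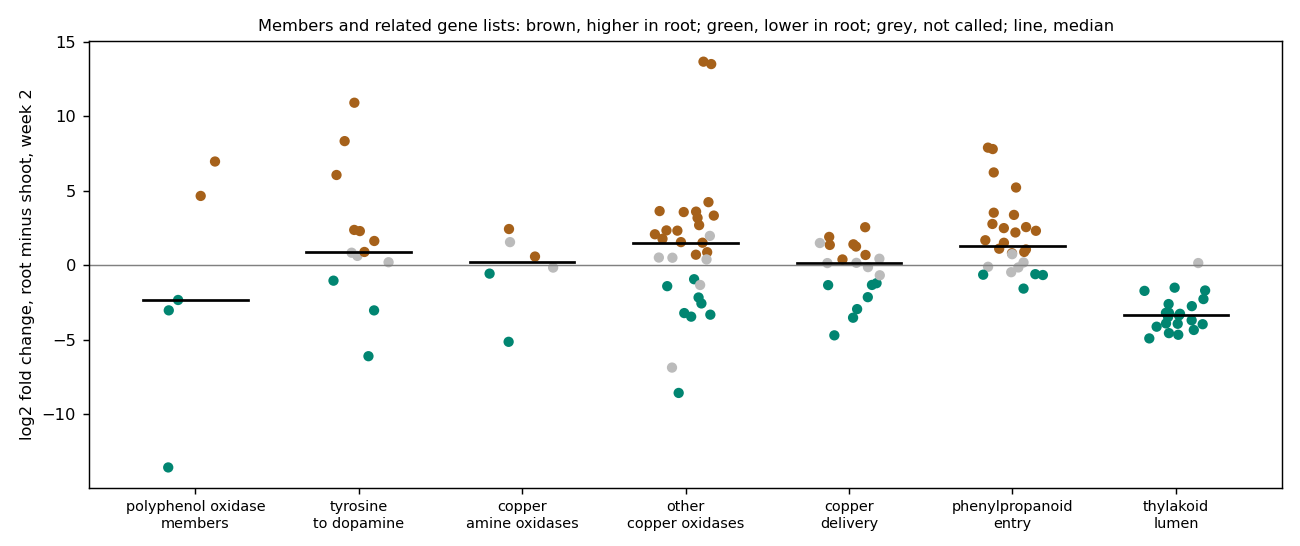
Root minus shoot log2 fold change at week 2 of each tested gene in the members and 6 related lists. Brown points were called higher in root, green lower and grey not called, and lines mark medians. Values for genes with 3 or fewer counts in an organ depend on the model's prior count. The members fell on both sides of 0, while 20 of 21 thylakoid lumen genes lay below it.

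Genes around the family's chemistry were described from keyword lists. Substrate supply came first. A list for entry into phenylpropanoids, the source of most plant phenols, held 26 tested genes, of which 17 were higher and 4 lower in roots at week 2, and 19 and 4 at week 4, with medians of 1.31 and 1.07. It includes an oxalate-CoA ligase match and a chalcone synthase match, which are not entry steps. Without them, 16 of 24 were higher and 4 lower at week 2, and 17 and 4 at week 4. The 24 still include matches to 4-coumarate-CoA ligase-like proteins, some higher and some lower in roots, whose names do not place them at an entry step. Of all tested genes, 28.4% were higher and 27.7% lower at week 2. Both of the most abundant, phenylalanine ammonia-lyase matches, were higher in roots. The first, 3G0653500, stood at 1859 ± 202 CPM in week 2 roots and 654 ± 31.4 CPM in week 2 shoots, a log2 fold change of 1.51 (adjusted p = 8.29e-05, edgeR). The list around tyrosine and dopamine held 13 tested genes, of which 7 were higher and 3 lower in roots at week 2, and 5 and 4 at week 4. Of these, 3 are arogenate dehydrogenase matches, which make tyrosine, and 2 of them were higher in roots at both ages. The other 10 are aromatic amino acid decarboxylase matches, of which 5 were higher and 3 lower at week 2, and 3 and 4 at week 4. A match to tyrosine/DOPA decarboxylase 3, 2G0654700, shared the root pattern of 2G0667800 and 2G0666400. It stood at 234 ± 27.1 CPM in week 2 roots and 142 ± 13.3 CPM in week 4 roots, with 7 and 0 pooled counts in shoots. The other of the 2 most abundant genes of this list, the decarboxylase match 3G0195766, did not share that pattern. It was not called between organs at week 2 and was lower in roots at week 4 (log2 fold change -1.73, adjusted p = 0.0292, edgeR).

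Other copper oxidases were more often higher than lower in roots. Among 31 tested laccase and ascorbate oxidase genes, which oxidise lignin precursors and ascorbate, 17 were higher and 8 lower in roots at week 2, and 20 and 6 at week 4 (32.4% and 28.5% of all tested genes). Putative laccase-9 (3G0779500) stood at 1795 ± 48.1 CPM in week 2 roots, with 9 pooled counts in week 2 shoots, and laccase-7 (2G0704300) at 24.5 ± 9.70 CPM in roots and 268 ± 1.87 CPM in shoots. With age in shoots 12 of the 31 were lower and 1 higher, against 19.4% and 14.5% of all tested genes. In roots 2 were lower and 0 higher, against 6.35% and 12.4%. The copper amine oxidase list, for enzymes that oxidise amines, held 6 genes, with 2 higher and 2 lower in roots at week 2 and 3 and 3 at week 4. One of those lower at both ages, 5G0170000, has an F-box protein as its best match. Without it, 2 were higher and 1 lower at week 2, and 3 and 2 at week 4.

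Copper reaches plastid enzymes through transporters. Of 20 tested copper delivery genes, 7 were higher and 7 lower in roots at both ages. Over all tested genes the shares were 28.4% higher and 27.7% lower at week 2, and 32.4% and 28.5% at week 4. A match to PAA2 (1G0977900), the ATPase that moves copper into the thylakoid lumen, was lower in roots, at 31.4 ± 5.63 CPM against 360 ± 23.0 CPM in shoots at week 2, a log2 fold change of -3.52 (adjusted p = 1.01e-08, edgeR). It was higher in week 4 roots than in week 2 roots, by 0.99 (adjusted p = 0.00197). Of 21 tested thylakoid lumen genes, 20 were lower in roots at each age and 17 were higher in week 4 than in week 2 roots, with medians of -3.37, -2.24 and 0.85. Over all tested genes, 12.4% were higher in week 4 than in week 2 roots.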

How the data were processed

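The authors deposited unscaled read counts per gene for 12 libraries, with gene length, position and best match. Per the submitters' processing notes, HISAT2 2.0.5, featureCounts 1.5.0-p3 and HTSeq 0.6.1 were named. Not given in the sources used here were their roles, the genome build, the strand setting and how reads shared by several genes were treated. Whether reads of overlapping genes were told apart by strand is therefore not known. Per the labels' protocols, mRNA was captured with poly-T beads. Gene length and position, in bases, were deposited values.

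The members and lists were chosen with earlier results of these data known. In R 4.3.3 with edgeR 4.0.16, filterByExpr on the 4 groups (minimum count 10, minimum total 15) left 26463 genes. All 12 libraries entered 1 model with a mean for each group (TMM, robust quasi-likelihood), with two-sided F tests, Benjamini-Hochberg adjustment over all tested genes and calls at an adjusted p under 0.05. SE is the absolute log2 fold change over the square root of F, and intervals are 95%. RPKM is TMM-scaled CPM per kilobase of the deposited length. A fold against 0 counts used a floor of 3 counts per group. Replicate numbers are those spelled out in the titles. The short codes in the 3 week 4 shoot titles all end in 1, so these 3 are told apart only by the spelled-out number. Named were all family genes, their nearest neighbours, the most alike genes and the 2 most abundant genes of each list. Of these the text gives those it discusses. The lists came from keywords in the descriptions, with 'plastocyanin' limited to names that begin with it after the table was seen. Alternatives were RLE and upper-quartile scaling, no filter, CPM of 1 in 3 libraries, DESeq2 1.42.0, limma-voom (limma 3.58.1), a fit of just the libraries compared, a block for the replicate number, and leaving out each library.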

Additional observations from a re-analysis of the deposited data

How the results depend on the processing

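All 5 members were called between organs at both ages, in the same direction, in each of 20 alternatives. For 3G0200300 and 2G0667800, which could pass the main filter only through the organ where they were high, these calls are no separate support. In all, 423 of 455 alternative values of 23 member results kept direction and side of the threshold. Members called for the interaction numbered 0, against 2 by DESeq2 and 0 to 1 when single libraries were left out. With age in roots the 1 called became 3 by DESeq2, 2 by limma-voom, 2 with the compared libraries alone and 0 with the replicate number as a block. It was 0 to 2 with single libraries left out (0 without any 1 of the 6 root libraries). With age in shoots the 3 called ranged from 1, without week 4 shoot replicate 3, to 4. There 2G0666400 had an adjusted p of 0.142 by limma-voom, 0.105 with the compared libraries alone and 0.0524 to 0.0644 when replicate 1 of week 2 shoots or replicate 2 or 3 of week 4 shoots was left out. Gene 2G0668300 had 0.012 by limma-voom, 0.0162 with the compared libraries alone and 0.0357 without week 2 root replicate 1. Uncalled values changed sign for 2G0666400 in the interaction (-0.13 without week 2 shoot replicate 1, and up to 0.364 without other single libraries) and for 3G0199700 with age in shoots (-0.045 without week 2 shoot replicate 3, -0.059 and -0.016 without week 4 shoot replicates 1 and 2, and up to 0.123 without others). The cause of these shifts was not tested, apart from fewer libraries where some were left out.

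Over all tested genes the interaction calls numbered 2254, against 3811 by DESeq2 and 1318 to 3542 with single libraries left out. Calls with age in roots numbered 4962 (3282 higher, 1680 lower), against 2533 to 5743 with single libraries left out. They were 2702 higher and 2907 lower with the compared libraries alone, and 1897 and 636 without week 4 root replicate 1. Correlations of residuals between libraries of the same replicate number ran from -0.121 to 0.179 over 18 pairs, with 4 over 0.1. The same number gave the best match in 8 of the 18. With 3 libraries to a group, these values cannot show whether the replicate numbers pair the libraries. The share of 3G0200300 in shoots was 89.3% and 73.8% without division by length. Low counts in the opposite organ, 0 to 3 over a group for 3G0200300 and week 4 2G0667800, limit those ratios.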
